A study of Mus musculus with 2 samples.

Results

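Double producers of the type 17 cytokine interleukin-17A and the type 1 cytokine interferon gamma were taken as barcodes with at least 10 UMIs of Il17a and at least 10 UMIs of Ifng per 10000 gene UMIs, with any level of Il2. They were thus chosen by their Il17a and Ifng values, which are given below as a description. A UMI is a molecular identifier that counts a captured RNA molecule once. There were 82 such cells among 1727 that passed the filters (500 or more genes detected, mitochondrial UMIs no higher than 10%), namely 38 of 709 in the library labelled NFATc1-deficient and 44 of 1018 in the library labelled wild type. The comparison cells reached 10 for Il17a only (138 in the deficient-labelled library and 587 in the wild-type-labelled library) or for Ifng only (265 and 48 in the same order). The remaining 268 and 339 cells reached neither.

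The cells were CD8 T cells isolated from mouse mesenteric lymph nodes (strain C57/B6N), driven towards the interleukin-17-producing Tc17 state with a Th17 polarising kit, and restimulated for 3 h with PMA at 100 ng/ml and ionomycin at 10 μg/ml before tagging and 3′ single-cell RNA sequencing. The deficient group carried a floxed Nfatc1 gene and a Cd4-Cre transgene, which deletes floxed sequence in T cells, and the other group was wild type. Each genotype was 1 library, neither the number of mice behind it nor their ages could be read from the labels, and cells of 1 library are not replicates, so no difference below carries a p-value. Intervals are 95% and cover counting error only.

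The 2 cytokines mark different T-cell programmes and lie on different chromosomes, Il17a (ENSMUSG00000025929) at chr1:20730905-20734496 and Ifng (ENSMUSG00000055170) at chr10:118441046-118445892 on mm10, both on the plus strand. Interleukin-17A, made with its close relative interleukin-17F, acts on epithelial and stromal cells and draws in neutrophils, while interferon gamma, from Ifng, activates macrophages and is a product of cytotoxic CD8 T cells. Type 17 lymphocytes are known to be plastic, and cells making both cytokines have been described in inflamed tissue. PMA and ionomycin bypass the antigen receptor and activate protein kinase C and calcium signalling, and calcium acts through calcineurin on NFAT factors.

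The median depth of kept cells was 21436 UMIs (deficient-labelled) and 20905.5 UMIs (wild-type-labelled), and no barcode was shared between them. Nfatc1, the targeted gene, was higher in the library labelled deficient, at 136.1 CPM (UMIs scaled to a total of 1000000) over all kept cells against 39.8 CPM in the wild-type-labelled library. Its 3′ counts do not show whether the floxed part was removed, so the libraries are named here by their labels. Whether the labels are exchanged cannot be told from these counts, and every direction given between libraries rests on them. All 38 and all 44 double producers held UMIs of at least 3 of 15 CD8 T-cell marker genes. Cd8b1, a CD8 coreceptor chain, was found in 35 of 38 and 43 of 44 of them, and Cd4 in 1 of 38 and 0 of 44. The natural killer marker Ncr1, the gamma-delta receptor gene Trdc, the innate-like T-cell factor Zbtb16 and the myeloid marker Lyz2 had no UMI in any double producer, which allows shares of cells with a UMI of up to 7.89% and 6.82%. Over whole marker lists, the double producers summed to 22.6 and 21.6 CPM for natural killer cells (7 and 6 of 9 genes at 0), 5.27 and 1.44 CPM for gamma-delta T cells (6 and 8 of 9 at 0) and 43.6 and 48.2 CPM for B cells (5 and 6 of 10 at 0). The list for innate-like T cells summed to 77.5 and 158 CPM (Zbtb16 and Klrb1, 2 of its 4 genes, at 0), against 58.4 and 52.9 CPM in Il17a-only cells and 90.5 and 92.1 CPM in Ifng-only cells, and Il18r1, described below, is a member of it. The myeloid list summed to 126 and 206 CPM (8 and 10 of 13 at 0) and the dendritic list to 193 and 386 CPM (8 and 5 of 12 at 0), against 211 and 223 CPM and 184 and 408 CPM in Il17a-only cells. Cst3 held 88.0 and 131.6 CPM of the myeloid sums in double producers, and Ctss most of the rest. Irf8 likewise held 145.2 and 269.8 CPM of the dendritic sums, and Bst2 most of the rest. The dendritic genes Siglech, Clec9a, H2-Aa, Itgax and Cd209a were at 0 in double producers of both libraries. Flt3, H2-Ab1 and H2-Eb1 were at 0 in those of the deficient-labelled library only. At least 3 dendritic markers were held by 2 of 38 (5.26%) and 10 of 44 (22.7%) double producers, against 3.62% and 12.1% of Il17a-only cells and 4.91% and 6.25% of Ifng-only cells, and the part of these cells in the results was not tested.

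The Ifng threshold was reached by a smaller share of the cells with Il17a than of those without. In the deficient-labelled library 38 of 176 cells with Il17a reached Ifng (21.6%, exact binomial interval 15.8 to 28.4%), against 265 of 533 cells below the Il17a threshold (49.7%, 45.4 to 54.0%). In the wild-type-labelled library the shares were 44 of 631 (6.97%, 5.11 to 9.25%) and 48 of 387 (12.4%, 9.29 to 16.1%). These counts use the values that define the members and are given as a description.

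**Figure D1:**
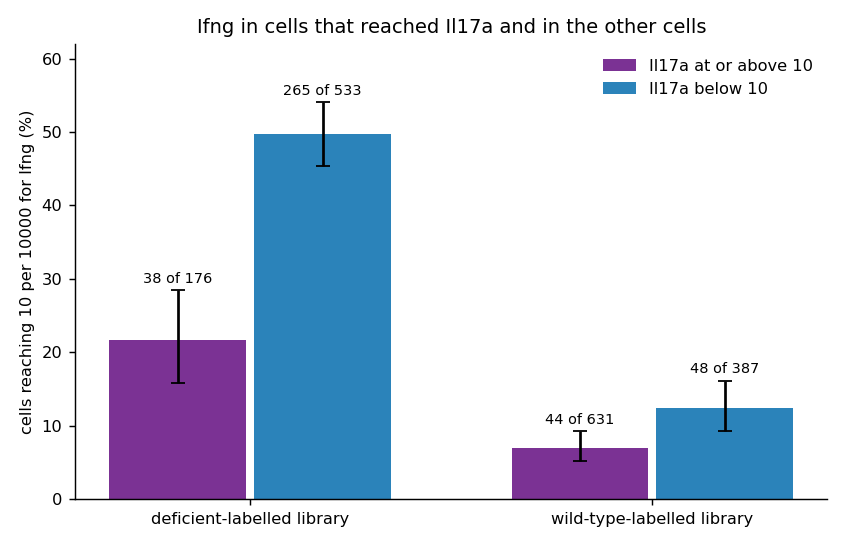
Bars give the percentage of cells reaching 10 UMIs of Ifng per 10000, among cells at or above and below the Il17a threshold, in each library, with 95% exact binomial intervals and counts above the bars. In both libraries the share is lower among cells with Il17a, 21.6% against 49.7% and 6.97% against 12.4%.

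Double producers made up similar shares of the 2 libraries although the single producers did not. They were 5.36% of kept cells in the deficient-labelled library (3.82 to 7.28%) and 4.32% in the wild-type-labelled library (3.16 to 5.76%), and these intervals overlap. Il17a-only cells were 19.5% of the deficient-labelled library and 57.7% of the wild-type-labelled one, and Ifng-only cells 37.4% and 4.72%. As a result the double producers were 38 of 303 cells reaching Ifng in the deficient-labelled library (12.5%) but 44 of 92 in the wild-type-labelled library (47.8%). They held 5.86% of all Ifng UMIs of the deficient-labelled library and 55.7% of those of the wild-type-labelled library. Of all Il17a UMIs they held 19.9% and 7.74%.

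Among the double producers, Il17a ranged from 10.4 to 437 per 10000 with a median of 68.3 in the deficient-labelled library, and from 12.2 to 623 with a median of 144 in the wild-type-labelled library. Il17a-only cells had medians of 119 and 136. Ifng ranged from 10.2 to 332 with a median of 29.6 in deficient-labelled double producers, and from 10.1 to 440 with a median of 44.1 in wild-type-labelled ones. Ifng-only cells had medians of 122 and 51.9, so the typical double producer of the deficient-labelled library held less of either cytokine than the typical single producer there. In the wild-type-labelled library the medians lay closer to those of the single producers.

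Cells that did not reach a gene's threshold are below 10 for it by the rule. Il17a in Ifng-only cells had a median of 0.669 per 10000 and a 90th percentile of 1.87 in the deficient-labelled library, and 0.909 and 3.02 in the wild-type-labelled library. Ifng in Il17a-only cells had a median of 0.309 and a 90th percentile of 1.69 in the deficient-labelled library, and 0 and 1.29 in the wild-type-labelled library. Il17a exceeded Ifng in 27 of 38 and 35 of 44 double producers. At 50 per 10000 or more of both genes stood 7 of the 38 and 16 of the 44 cells.

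The threshold has no gap beside it. Ranked by the lower of its 2 values, the members just inside stood at 10.2, 10.4 and 10.5 in the deficient-labelled library and at 10.1, 11.8 and 12.2 in the wild-type-labelled library. The cells just outside stood at 9.90, 8.57 and 8.08 and at 9.56, 8.45 and 8.03. Between 10 and 20 lay 14 of the 38 members and 10 of the 44. Some members were shallow barcodes: 5 of 38 and 1 of 44 held under 5000 UMIs in all, and these same cells had under 3 UMIs of the scarcer cytokine. Under 5000 UMIs were also 2 of 138 and 6 of 587 Il17a-only cells and 2 of 265 and 0 of 48 Ifng-only cells. The kept cells held 11 such barcodes in the deficient-labelled library, 5 of them double producers, and 14 in the wild-type-labelled library, 1 of them a double producer. Without barcodes under 5000 UMIs, double producers were 4.73% and 4.28% of cells.

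**Figure D2:**
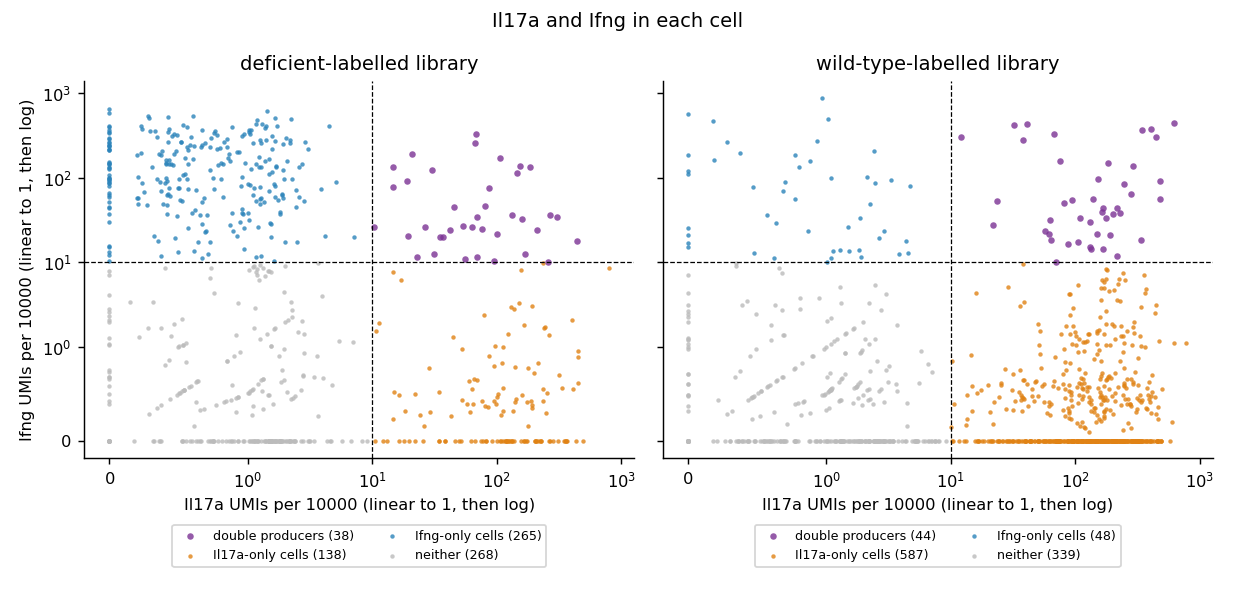
Each point is a kept cell, placed by its Il17a and Ifng UMIs per 10000 (axes linear to 1, then logarithmic), in the deficient-labelled and wild-type-labelled libraries; dashed lines mark the threshold of 10. The 38 and 44 double producers fill the upper right quadrant without a gap at its lower edge, while Ifng-only cells number 265 in the deficient-labelled library and 48 in the wild-type-labelled one.

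A droplet that caught an Il17a-only cell together with an Ifng-only cell would also meet the rule, so the measures that bear on it are given here. Double producers had a median of 25730.5 UMIs in the deficient-labelled library and 26646 in the wild-type-labelled library, against 20659.5 and 21754 in Il17a-only cells and 24050 and 18940.5 in Ifng-only cells. Above the 95th percentile of UMIs of their library lay 7 of 38 (18.4%) and 5 of 44 (11.4%), against 7.25% and 6.47% of Il17a-only cells. The doublet caller Scrublet marked 1 of 38 and 0 of 44. A second multiplexing tag above 10% of a cell's tag counts occurred in 28.9% and 29.5% of double producers, against 36.2% and 39.0% of Il17a-only cells and 16.6% and 33.3% of Ifng-only cells. The median share of the second tag was 6.45% and 7.47% in double producers and 8.71% and 8.63% in Il17a-only cells. The 10% cut thus lies close to the usual level and cannot single out mixed droplets. At least 3 UMIs of both Trbc1 and Trbc2, the alternative constant genes of the receptor beta chain, occurred in 60.5% and 59.1% of double producers and in 71.0% and 59.1% of Il17a-only cells. Most cells of every class met this measure, so it cannot single out mixed droplets either. A tag cannot tell apart 2 cells of the same library, and the share of mixed droplets among the members was not tested. Leaving out the deepest 5% of cells in each library left double producers at 4.61% and 4.03% of cells.

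The genes that set double producers apart from Il17a-only cells were summed over the cells of each class and library and expressed in CPM. A gene was counted when it held at least 50 CPM in a class in each library and differed by 2-fold or more in the same direction in both libraries. Of 2808 genes, 14 were counted (0.499%), 8 higher in double producers (0.285%) and 6 lower (0.214%), without Il17a and Ifng. These classes are cut from the same cells, so the counts describe them and test nothing. The higher genes were the cytokine Il10, the chemokines Ccl1, Ccl3 and Ccl4, the cytotoxic genes Gzmb and Nkg7, the inhibitory receptor Ctla4 and the transcription factor Batf3. The lower ones were Tmem176a, Tmem176b, Ccr6, Csf2, Dlg2 and Ramp1. Under 18 other settings Il10, Nkg7, Ccl3, Ccl4, Gzmb and Tmem176a were called every time, while Ctla4 and Batf3 changed sign under some.

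Il10 encodes an anti-inflammatory cytokine. It held 244 CPM in deficient-labelled and 555 CPM in wild-type-labelled double producers, against 10.3 and 22.2 CPM in Il17a-only cells. The log2 differences were 4.44 and 4.58. Any Il10 UMI was held by 23.7% and 45.5% of double producers, and 3 of 38 and 8 of 44 reached 10 per 10000, against 1 of 138 and 2 of 587 Il17a-only cells. Ifng-only cells stood higher still, at 468 and 934 CPM.

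The inflammatory chemokines Ccl3 and Ccl4 were common to most double producers. Ccl4 held 41297 CPM in deficient-labelled and 16846 CPM in wild-type-labelled double producers, against 13481 and 5067 CPM in Il17a-only cells, ratios of 3.06 and 3.32. At least 10 per 10000 of Ccl4 was reached by 36 of 38 and 41 of 44 double producers, but by 63.0% and 53.3% of Il17a-only cells. Ccl3 held 8422 and 2539 CPM in double producers against 2414 and 543 CPM in Il17a-only cells, ratios of 3.49 and 4.68. Neither gene was called against Ifng-only cells, which held 56018 and 25340 CPM of Ccl4. Xcl1, a ligand for cross-presenting dendritic cells, fell just short of the 2-fold limit, with 32774 and 11312 CPM in double producers against 16676 and 6156 CPM in Il17a-only cells. Ccl1, a CCR8 ligand, rested on few cells: a single cell held 69.1% of its UMIs in deficient-labelled double producers and 61.8% in wild-type-labelled ones.

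Gzmb encodes the granule protease granzyme B. It held 785 and 175 CPM in double producers, against 21.4 and 18.5 CPM in Il17a-only cells, ratios of 36.7 (29.1 to 46.8) in the deficient-labelled library and 9.45 (7.93 to 11.3) in the wild-type-labelled library. Ifng-only cells held 1485 and 1988 CPM. At least 10 per 10000 was reached by 7 of 38 double producers in the deficient-labelled library, where 0 of 138 Il17a-only cells did, which by the floor of 3 cells allows a share of up to 2.17% there. In the wild-type-labelled library it was 1 of 44 double producers and 2 of 587 Il17a-only cells. Nkg7, a protein of cytotoxic granules, was more even among cells, with 588 and 631 CPM in double producers, from 33 of 38 and 40 of 44 cells, against 204 and 155 CPM in Il17a-only cells. Of 10 cytotoxic genes measured well enough in this comparison, Gzmb and Nkg7 were called and the other 8 were within 2-fold in a library or disagreed in direction. The median log2 differences of these 10 were 0.25 and 0.57, against -0.10 and -0.10 over all 2808 genes.

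Of 10 type 17 genes tested, 0 stood higher and 3 lower in double producers than in Il17a-only cells, where 0.285% and 0.214% of all genes were. The median log2 differences of these 10 were -0.68 and -0.26, against -0.10 and -0.10 over all genes. Tmem176a and Tmem176b, neighbouring genes for membrane channels associated with type 17 cells, gave matching values. Tmem176a held 69.2 and 69.1 CPM in double producers, against 236 and 199 CPM in Il17a-only cells (log2 differences of -1.76 and -1.52). Tmem176b held 39.1 and 39.6 CPM against 113 and 112 CPM (-1.51 and -1.48). Ccr6, the receptor that guides type 17 cells to Ccl20, held 8.27 and 12.2 CPM in double producers, from 11 and 17 UMIs, against 51.7 and 69.7 CPM in Il17a-only cells, and was not called under 6 of the 18 other settings. Il23r, the receptor for the type 17 survival cytokine interleukin-23, stayed below the floor. It held 3.01 CPM in deficient-labelled and 0 CPM in wild-type-labelled double producers, against 41.4 and 6.55 CPM in Il17a-only cells. Ccl20 itself held 3.76 CPM, from 5 UMIs of 1 cell, and 0 CPM in double producers, against 189.7 and 10.6 CPM in Il17a-only cells. A floor of 3 UMIs in wild-type-labelled double producers is 2.16 CPM.

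Csf2, the cytokine GM-CSF, and the scaffold gene Dlg2 were also lower, from small counts in double producers. Csf2 held 6.77 and 29.5 CPM in them, from 9 and 41 UMIs, against 86.5 and 93.2 CPM in Il17a-only cells. Csf2 changed direction under 2 other settings. Ctla4 held 196 and 193 CPM in double producers against 76.5 and 73.3 CPM, but 79.3% and 57.5% of these UMIs lay in a single cell of each library. With the UMIs of the top cell left out in each class, Il17a-only cells included, the log2 difference of Ctla4 in the deficient-labelled library was -0.72.

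Several other lists had 0 genes called against Il17a-only cells, and 5 of them are given here. With 0.499% of all genes called, lists of this size would hold few or none. They were 28 early activation genes (median log2 differences of 0.15 and 0.24), 9 NFAT and calcium genes (-0.26 and -0.08), 13 glycolysis and hypoxia genes (0.04 and 0.03), 9 stress and amino acid supply genes (0.12 and 0.09) and 15 CD8 T-cell marker genes (-0.05 and -0.04). Of 6 type 1 genes other than Ifng itself, 0 passed in either direction, with medians of 0.14 and 0.41 and with Tnf and Stat4, the factor that relays interleukin-12 signals, at the upper end. Of 13 genes of the G2/M cell-cycle phase 0 were called, and 12 were lower in both libraries. Their medians were -0.35 and -0.28, against -0.10 and -0.10 over all genes. The share of all genes lower in both libraries is not given here, so the count of 12 has no background.

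**Figure D3:**
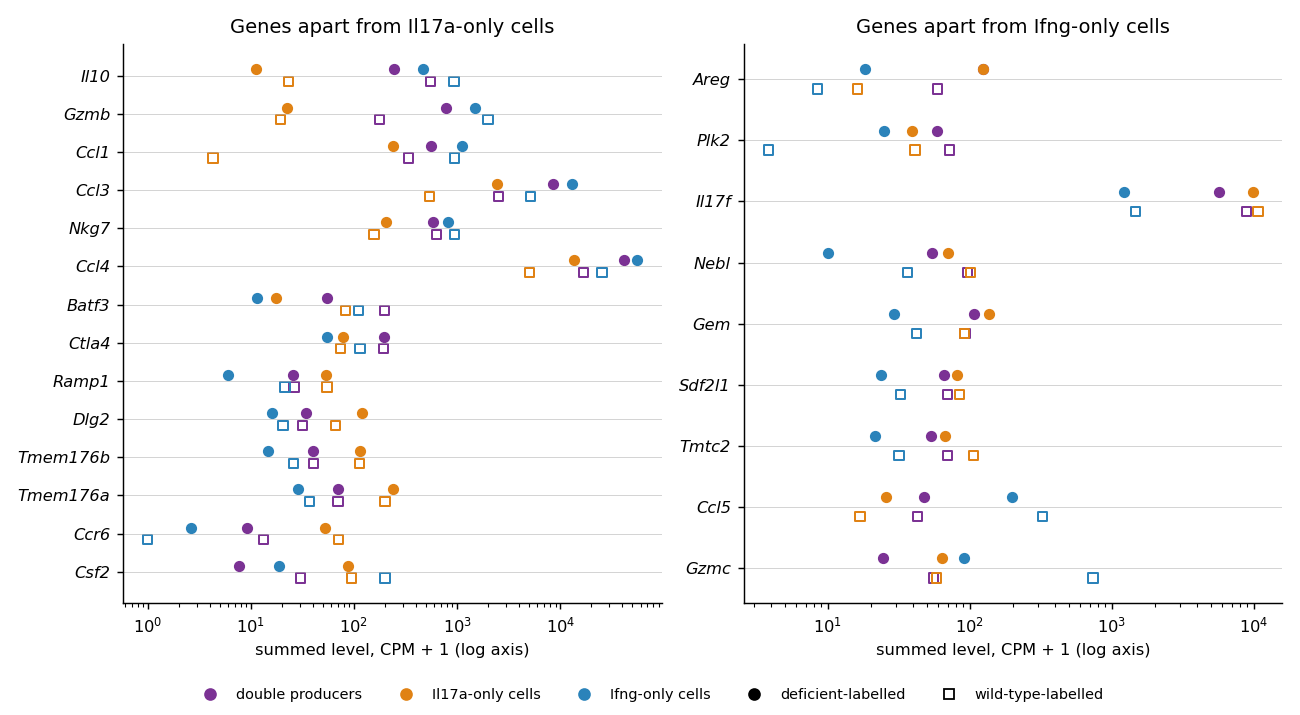
Summed level (CPM + 1, log axis) of the 14 genes called against Il17a-only cells (left) and 9 genes called against Ifng-only cells (right), in double producers, Il17a-only cells and Ifng-only cells; filled circles are the deficient-labelled library and open squares the wild-type-labelled one. Il10, Gzmb, Ccl3, Ccl4 and Nkg7 of the double producers lie between the levels of the 2 kinds of single producer in both libraries, and Il17f of the double producers lies near Il17a-only cells.

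Against Ifng-only cells, 10 of 2654 genes were counted by the same rule (0.377%), 8 higher in double producers (0.301%) and 2 lower (0.0754%). Among the higher genes were Il17f, Areg, Nebl, Gem, Tmtc2, Plk2 and Sdf2l1, and the chemokine Ccl5 and the granzyme Gzmc were the lower ones. Only Il17f and Ccl5 were called under all of the 18 other settings. Il17f, the partner cytokine encoded next to Il17a, held 5644 and 8865 CPM in double producers, against 1221 and 1464 CPM in Ifng-only cells. The ratio was 4.62 (4.48 to 4.77) in the deficient-labelled library and 6.06 (5.75 to 6.39) in the wild-type-labelled library. At least 10 per 10000 of Il17f was reached by 30 of 38 and 37 of 44 double producers, against 14.7% and 20.8% of Ifng-only cells.

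Ccl5, a chemokine of effector and memory CD8 T cells, held 46.6 and 41.7 CPM in double producers, against 198 and 326 CPM in Ifng-only cells (log2 differences of -2.06 and -2.93). Any Ccl5 UMI was held by 13.2% and 22.7% of double producers, against 25.3% and 14.6% of Ifng-only cells. The share of carrying cells thus went the other way in the wild-type-labelled library. At least 10 per 10000 was reached by 1 of 38 and 0 of 44 double producers, against 14 of 265 and 4 of 48 Ifng-only cells. Gzmc held 23.3 and 54.7 CPM in double producers against 90.5 and 736 CPM in Ifng-only cells. In double producers 87.1% and 69.7% of the Gzmc UMIs came from a single cell. Areg, the epidermal growth factor family member amphiregulin, held 123 and 58.3 CPM against 17.1 and 7.44 CPM. In wild-type-labelled double producers 96.3% of the Areg UMIs lay in 1 cell, so its level there is that of a single barcode. Nebl, Gem, Tmtc2 and Sdf2l1 each held between 51.9 and 106 CPM in double producers.

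Many double producers carried several of 6 chosen effector genes at once. Other measured genes were left out of this count, such as Csf2 and Il21 (each reaching 10 per 10000 in 0 of 38 and 0 of 44) and Cd160 (14 of 38 and 0 of 44). Of 6 genes outside the rule (Il17f, Il2, Tnf, Ccl3, Ccl4 and Xcl1), at least 4 reached 10 per 10000 in 34 of 38 double producers of the deficient-labelled library (89.5%, 75.2 to 97.1%), against 45.7% of Il17a-only cells and 86.4% of Ifng-only cells. In the wild-type-labelled library the share was 29 of 44 double producers (65.9%, 50.1 to 79.5%), against 28.1% of Il17a-only cells and 41.7% of Ifng-only cells. All 6 were reached by 6 of 38 and 3 of 44 double producers. Among these 6 genes, Il17f was higher in Il17a-only than in Ifng-only cells, and Ccl3, Ccl4 and Xcl1 were higher in Ifng-only cells. Cells or droplets holding both sets reach more of the 6 through this choice of genes. The shares therefore describe the members and test nothing. Il2, the T-cell growth factor, was reached in 35 of 38 and 33 of 44 double producers, against 68.8% and 63.2% of Il17a-only cells and 89.8% and 52.1% of Ifng-only cells. Its summed levels were 11114 and 10803 CPM in double producers and stayed within 2-fold of both kinds of single producer. Tnf, a pro-inflammatory cytokine, was reached in 23.7% and 15.9% of double producers, against 12.3% and 4.94% of Il17a-only cells and 17.7% and 10.4% of Ifng-only cells, with intervals that overlap those of both kinds of single producer in both libraries. The median UMIs per cell of double producers were also above those of either kind of single producer. With each cell thinned to 5000 UMIs and at least 5 of these required, Il2 was reached by 93.9% and 74.4% of double producers, against 68.4% and 64.0% of Il17a-only cells and 89.0% and 52.1% of Ifng-only cells. Tnf was reached by 36.4% and 18.6% of double producers after thinning, against 16.9% and 8.95% of Il17a-only cells and 25.5% and 10.4% of Ifng-only cells. The order of the shares was thus the same at equal depth for these 2 genes.

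**Figure D4:**
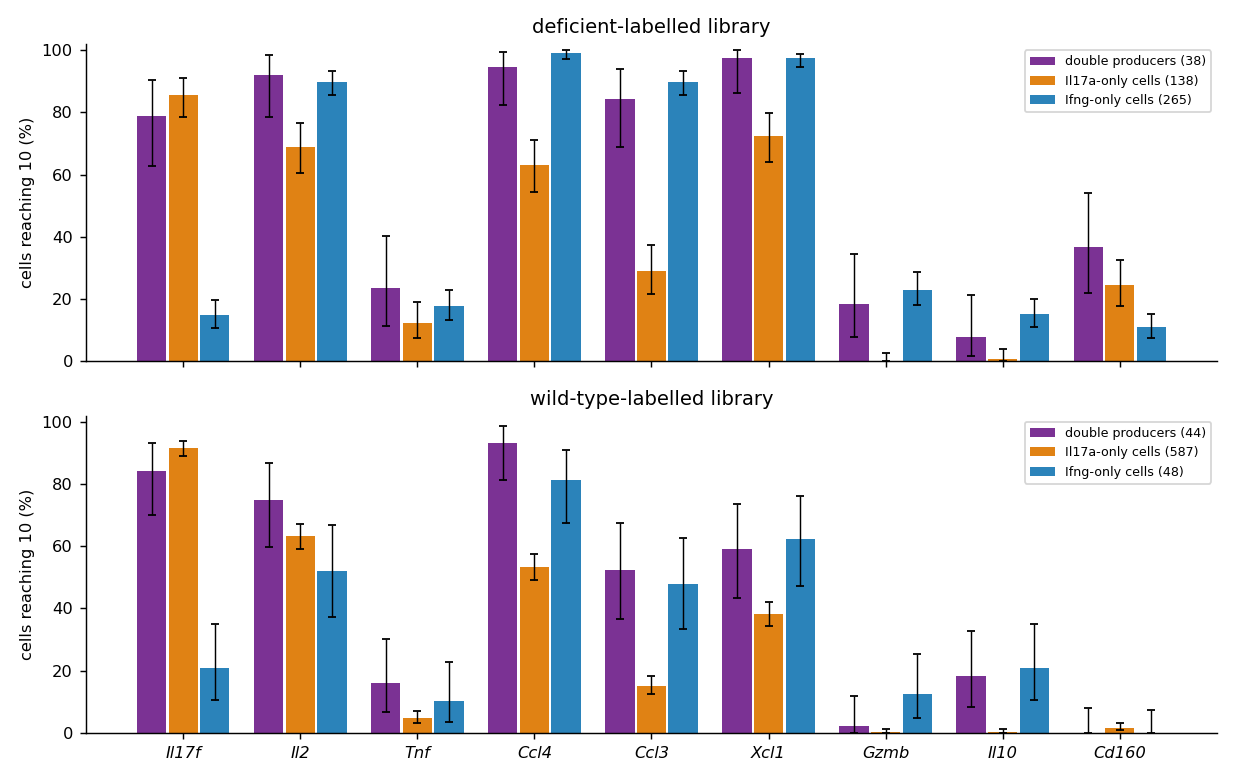
Percentage of cells reaching 10 UMIs per 10000 of 9 effector genes in double producers, Il17a-only cells and Ifng-only cells of each library, with 95% exact binomial intervals. Double producers stand with Il17a-only cells for Il17f (78.9% and 84.1%) and with Ifng-only cells for Ccl4 (94.7% and 93.2%), and Cd160 reaches 36.8% in the deficient-labelled library and 0% in the wild-type-labelled one.

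To place the double producers between the single producers, 49 genes were taken that differed 2-fold or more in the same direction in both libraries between Ifng-only and Il17a-only cells (1.73% of 2839 tested), 20 higher in Ifng-only cells (0.704%) and 29 higher in Il17a-only cells (1.02%). A position of 0 is the level of Il17a-only cells and 1 that of Ifng-only cells, on the log2(CPM + 1) scale. The double producers lay between 0 and 1 for 48 of 49 genes in the deficient-labelled library and 46 of 49 in the wild-type-labelled library. The median positions were 0.541 and 0.577.

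The 2 sets of genes had median positions on different sides of the middle. For the 20 genes higher in Ifng-only cells the median position was 0.702 in the deficient-labelled library and 0.716 in the wild-type-labelled library, nearer to Ifng-only cells. For the 29 genes higher in Il17a-only cells it was 0.447 and 0.398, nearer to Il17a-only cells. Havcr2, an inhibitory receptor of type 1 T cells, stood at 0.828 and 0.876, and Il10 at 0.826 and 0.859, whereas Ccl5 of the same set stood at 0.301 and 0.314. Nebl stood at 0.129 and 0.039, Sdf2l1, a chaperone cofactor of the endoplasmic reticulum, at 0.167 and 0.208, and Il17f at 0.270 and 0.094. In that second set Bcl11b, a transcription factor of T-cell identity, stood at 0.908 and 0.708, Elk3 at 0.701 and 0.577 and Tmem176a at 0.578 and 0.625. Of the 29 genes 16 stood nearer to Il17a-only cells and 13 nearer to Ifng-only cells in the deficient-labelled library, and 18 and 11 in the wild-type-labelled one. A computed mixture of equal parts of both single-producer sums, which also lies between them on this scale, had medians of 0.658 and 0.643 for the first set of genes and 0.359 and 0.381 for the second. The double producers and this mixture therefore had medians on the same side of the middle in each set and library. Over all 49 genes they did not, with medians of 0.387 and 0.404 for the mixture against 0.541 and 0.577 for the double producers. Under other settings the medians of the double producers moved to either side of the middle. They were 0.487 and 0.451 without the deepest 5% of cells, 0.502 and 0.456 in G1 cells and 0.578 and 0.685 at a floor of 100 CPM. The mixture was not computed under these settings. What mixed droplets add to these positions was not tested.

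**Figure D5:**
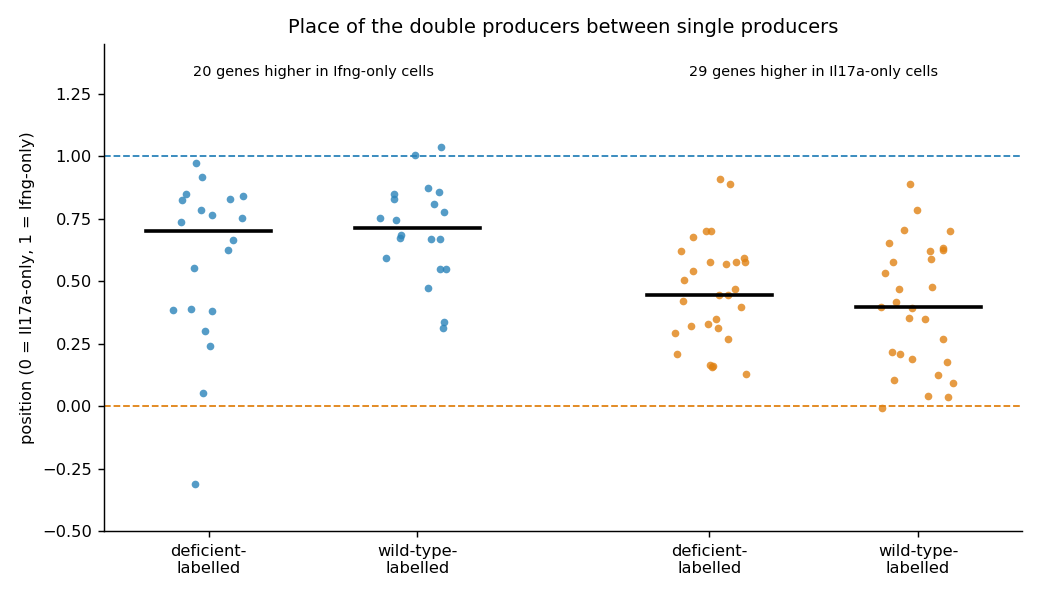
Each point is a gene that differed between Ifng-only and Il17a-only cells, placed by the level of the double producers between Il17a-only cells (0) and Ifng-only cells (1), by library; black bars are medians. Medians are 0.702 and 0.716 for the 20 genes higher in Ifng-only cells and 0.447 and 0.398 for the 29 genes higher in Il17a-only cells.

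Cells were also compared by their 15 nearest neighbours within a library, in a space built without Il17a, Ifng and Il17f from cells thinned to 5000 UMIs, which 33 and 43 double producers reached. In the deficient-labelled library 48.3% of the double producers' neighbours were Ifng-only cells, which made up 37.7% of the other cells, and 19.2% were Il17a-only cells, which made up 19.5%. In the wild-type-labelled library 14.9% were Ifng-only cells, which made up 4.79%, and 59.8% were Il17a-only cells, which made up 57.9%. Cells below 10 for both cytokines were fewer among the neighbours than in the library, 27.3% against 38.2% and 16.3% against 33.1%. Other double producers were 5.25% of neighbours against 4.59% of cells in the deficient-labelled library and 8.99% against 4.19% in the wild-type-labelled library. At 5000 UMIs, phase scores put 26 of 33 and 37 of 43 double producers in G1. The G1 shares were 85.3% and 82.6% in Il17a-only cells and 94.3% and 87.5% in Ifng-only cells. In G2/M were 4 (12.1%) and 3 (6.98%) double producers, against 8.82% and 9.12% of Il17a-only cells. In the deficient-labelled library this share was thus higher in double producers, although the median of the G2/M genes was lower there.

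Between the libraries, 203 of 3039 genes (6.68%) differed 2-fold or more in double producers, 99 higher in the deficient-labelled library (3.26%) and 104 lower (3.42%), for genes at 50 CPM or more in a library. The median log2 difference of all tested genes was 0.09. With sums over 38 and 44 cells, single cells weighed heavily. A single cell held 99.4% of the Il22 UMIs, 94.3% of the Ddb2 UMIs, 90.6% of the Twsg1 UMIs and 89.9% of the Nxpe3 UMIs among wild-type-labelled double producers. Likewise a single cell held 96.1% of the Sdc4 UMIs among deficient-labelled ones. Genotype, library and culture cannot be told apart in this comparison.

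Of 13 cytotoxic genes tested, 4 were higher in deficient-labelled double producers (Gzmb, Cd160, Jaml and Crtam) and 1 was lower (Gzmc). Of all 3039 genes, 3.26% were higher and 3.42% lower. The median log2 difference of the 13 was -0.10, against 0.09 over all genes. Cd160, an inhibitory and costimulatory receptor of cytotoxic lymphocytes, held 1064 CPM in deficient-labelled double producers against 216 CPM in wild-type-labelled ones, a ratio of 4.93 with a counting interval of 4.35 to 5.60. It came from 35 of 38 and 38 of 44 cells. The log2 difference was 2.30 in double producers, 2.60 in Il17a-only cells and 1.88 in Ifng-only cells, so it was found in all 3 classes. Of 4 chemokines tested 3 were higher and 0 lower, with a median log2 difference of 1.41. The higher ones were Ccl3 at 8422 against 2539 CPM, Ccl4 at 41297 against 16846 CPM and Xcl1 at 32774 against 11312 CPM. Ccl3 and Ccl4 were also higher in deficient-labelled Il17a-only cells (2414 against 543 CPM and 13481 against 5067 CPM). The same held in Ifng-only cells (13137 against 5164 CPM and 56018 against 25340 CPM). Gzmb was 4.49 times as high (3.90 to 5.19) in deficient-labelled double producers, with 11 and 15 cells carrying it, whereas its log2 difference was 0.20 in Il17a-only cells and -0.42 in Ifng-only cells. Crtam, an adhesion receptor of activated CD8 T cells, held 648 against 204 CPM. Jaml, an adhesion receptor for epithelium, held 162 against 33.8 CPM and the kinase gene Map3k8 110 against 22.3 CPM. Nfatc1 itself held 104.6 CPM in deficient-labelled against 33.8 CPM in wild-type-labelled double producers, a ratio of 3.09 (2.21 to 4.40).

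Of 8 type 1 genes tested, 0 were higher and 2 lower (Tbx21 and Il18r1) in deficient-labelled double producers, where 3.26% and 3.42% of all genes were. The median log2 difference of these 8 was -0.27, against 0.09 over all genes. Tbx21, which encodes the type 1 master factor T-bet, held 11.3 CPM in deficient-labelled double producers, from 15 UMIs, against 51.1 CPM in wild-type-labelled ones (log2 difference -2.08), and its differences were -0.99 in Il17a-only and -2.03 in Ifng-only cells. Il18r1, a receptor chain for interleukin-18, held 48.9 against 142 CPM (-1.52), with log2 differences of 0.07 and -0.34 in the single producers. Il10 held 244 against 555 CPM (-1.18), and the AP-1 factor Batf 92.5 against 205 CPM (-1.14). AA467197, a small transcript whose role is not described here, held 90.3 against 715 CPM (-2.97), with 19 of 38 and 41 of 44 cells carrying it.

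Of 11 stress and amino acid supply genes, 0 were higher and 5 lower in deficient-labelled double producers, where 3.26% and 3.42% of all genes were. The median log2 difference of these 11 was -0.83, against 0.09 over all genes. Ddit3, a factor of the unfolded protein response, held 12.8 against 86.3 CPM. Asns, which makes asparagine, held 74.5 against 183 CPM, and Phgdh, which starts serine synthesis, 108 against 277 CPM. Of 9 cholesterol genes, 0 were higher and 3 lower, among them the sterol synthesis gene Msmo1 at 24.8 against 85.6 CPM. The median log2 difference of these 9 was -0.69. The genes named here also had negative log2 differences in both kinds of single producer. Phgdh had values of -1.36 in double producers, -1.38 in Il17a-only cells and -1.34 in Ifng-only cells. Il2 and Tnf were within 2-fold between the libraries, at 11114 against 10803 CPM for Il2 and 713 against 487 CPM for Tnf. Of 15 CD8 T-cell marker genes, 0 differed by 2-fold in either direction, and with 6.68% of all genes differing, a list of this size would hold few or none.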

How the data were processed

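The deposited files are raw UMI counts per gene, multiplexing tag and barcode, made with Cell Ranger 7.0.0 per the file headers, on mm10 per the submitters' processing notes; neither annotation nor barcode calling is stated there. Of 754 deficient-labelled and 1149 wild-type-labelled barcodes, 709 and 1018 were kept. Members, gene lists and comparisons were chosen with earlier results of these data known. Counts were summed per library and class (1329451 and 1390144 UMIs in double producers) and compared as log2(CPM + 1). Genes named are the 10 largest differences in each direction, leaving out mitochondrial, ribosomal, receptor-segment and unnamed genes, plus listed genes, the most extreme members of each list, the most extreme positions and identity markers. Share intervals are Clopper-Pearson, and ratio intervals are conditional binomial. A few genes that met these rules are not reported here. No test was made with 1 library per genotype. The gene-count rules were tested on simulated class sums with counting error only. These held no variation between cells, so they cannot show how often single cells lead to a call. Analysis used Python 3.11.15, NumPy 2.4.6, SciPy 1.17.1, pandas 2.3.3, scanpy 1.11.5 (with Scrublet), scikit-learn 1.9.0 and matplotlib 3.10.9. Alternatives covered threshold, depth, doublet calls, tags, scaling, floor, pseudocount and phase.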

Additional observations from a re-analysis of the deposited data

Results flagged for a closer look

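S100a4, a calcium-binding protein of effector cells, differed from Il17a-only cells in opposite directions in the 2 libraries, with log2 differences of -1.23 in the deficient-labelled library (83.5 CPM in double producers against 198 CPM) and 1.71 in the wild-type-labelled library (145 against 43.5 CPM). Timp1, a metalloproteinase inhibitor, did likewise at -1.60 (20.3 against 63.7 CPM) and 2.78 (128 against 17.8 CPM), from 5 of 38 and 11 of 44 double producers. A single cell held 63.0% of the Timp1 UMIs in deficient-labelled double producers, which had 27 in all, and 35.4% in wild-type-labelled ones. For S100a4 these shares were 17.1% and 30.9%. Neither difference between libraries was tested. Multiplexing tags other than a library's own held 8.75% of tag counts in the deficient-labelled library and 14.2% in the wild-type-labelled library, in data outside the gene comparisons.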

How the results depend on the processing

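No paired analysis was possible because each genotype is 1 library and the labels carry no shared replicate numbers. With a threshold of 20, double producers were 3.39% of the deficient-labelled library, and Ifng was reached by 15.3% of its cells with Il17a and 45.1% of those without, and by 8.21% of wild-type-labelled cells without Il17a; with a threshold of 5 double producers were 5.80% of the wild-type-labelled library. Without cells holding a second tag, 54.6% of deficient-labelled cells below Il17a reached Ifng. Under each setting run the share reaching Ifng, which uses the values that define the members, was lower among cells with Il17a. Against Il17a-only cells, higher genes numbered 15 at a 20 CPM floor, 14 in G1 cells and 5 without each gene's top cell. Median ratio scaling moved the median of all genes there to 0.07 and 0.05, against -0.10 and -0.10, and left 3 lower genes. Lower genes numbered 19 and 2 at floors of 20 and 100 CPM and 12 without the top cell, a step that by construction lowers the smaller class more. Against Ifng-only cells, higher genes numbered 15 and 1 at these floors and 5 without the top cell. Lower genes numbered 6 at a threshold of 20, 6 without the deepest 5%, 4 with median ratio scaling, 6 and 1 at the floors and 4 in G1 cells. Judged in 1 library alone, with 1 direction to meet, counts were 15 to 40 higher and 19 to 45 lower than Il17a-only cells, and 32 to 52 higher and 16 to 31 lower than Ifng-only cells. Between libraries, 288 genes were higher by mean per-cell CPM, 243 and 53 at the floors, and 225 and 53 lower at the floors. The median position in the deficient-labelled library was 0.598 at a threshold of 20, 0.577 without second tags, 0.487 without the deepest cells, 0.501 by per-cell CPM, 0.501 and 0.578 at the floors, 0.502 in G1 cells and 0.467 with genes from that library alone. In the wild-type-labelled library it was 0.496 at a threshold of 5, 0.519 after thinning, 0.451 without the deepest cells, 0.455 by per-cell CPM, 0.606 and 0.685 at the floors, 0.456 in G1 cells, 0.514 without top cells and 0.532 with genes from that library alone. Log2 differences that changed sign against Il17a-only cells were Batf3 at -0.61 (threshold of 20) and -1.74 (deepest cells out), Ccl1 at -1.70 (G1 cells), Csf2 at 0.45 (threshold of 5) and Ctla4 at -0.93 (threshold of 20), -1.86 (deepest cells out) and -0.72 (top cell out) in the deficient-labelled library, and Csf2 at 0.96 (G1 cells) and Ctla4 at -0.20 (second tags out) in the wild-type-labelled library. Against Ifng-only cells, Areg was at -2.43 in the wild-type-labelled library (second tags out). Between libraries, Nxpe3 was at 0.64 (threshold of 20), 0.67 (second tags out) and 0.055 (top cell out), Sdc4 at -0.40 (deepest cells out), -0.43 (G1 cells) and -0.50 (top cell out), and Twsg1 at 0.78, 0.92 and 0.44 under the same settings. Except where a cell was removed, the cause was not tested. Leaving out top cells or barcodes under 5000 UMIs was chosen after seeing the data. Class sums of 38 and 44 cells limit every gene comparison.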
